A study of Homo sapiens with 4 samples.

Results

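Ribosome biogenesis and RNA polymerase I (Pol I) genes were examined in MV4-11 cells, a human acute myeloid leukemia (AML) cell line, upon CEBPG knockdown. The group comprised 55 genes of the 16490 in the table, chosen by gene symbol for their known roles in making ribosomes. FPKM, which counts fragments by exon length and by mapped reads, was the unit of the table, and the values of all RefSeq rows of a symbol were summed in each library. All 55 had values, and all 55 were among the 12142 genes that passed the filter of a mean of at least 0.5 FPKM and were tested.

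RNA-seq compared 2 libraries of control cells carrying the hairpin sh-NC with 2 libraries of cells carrying sh-CEBPG#3, to find genes that respond to loss of CEBPG, a transcription factor of the C/EBP family. The paper describes stable lines made by lentiviral infection and selected with puromycin, with the hairpins against CEBPG in the pLKO.1-puro vector. The vector of sh-NC is not stated in the sources used here. A single hairpin against CEBPG was sequenced, so its effect cannot be told apart from effects of that hairpin on other RNAs. No source used here says that the 2 libraries of a group are separate infections, and the p-values measure only the spread between these libraries.

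CEBPG itself was at 30.4 and 33.6 FPKM in sh-NC and at 19.2 and 17.1 FPKM in sh-CEBPG#3, a log2 fold change of −0.78 (SE 0.09, limma adjusted p = 8.88e-05). The FPKM totals lay between 364353 and 389766, and the libraries correlated across genes at r = 0.9934 and 0.9936 within groups and at 0.9624 to 0.9639 between them. Of 10 myeloid markers, which include LYZ and CD33, all 10 had values, with summed levels of 941.1 and 1030 FPKM in sh-NC and 3670 and 3488 FPKM in sh-CEBPG#3. LYZ made up most of each sum, and without it they were 374.3 and 419.2 against 543.9 and 506.6 FPKM. Of 6 T-cell markers, 1 had values, which stayed at or under 0.0901 FPKM. The 4 B-cell markers with values summed to between 2.834 and 3.241 FPKM, and of the 2 tested, PAX5 fell, at −0.37 (adjusted p = 0.0301), and CD79A, named after its value was seen, was at 0.31. Of 6 erythroid markers looked up, 0 had values in the table used here.

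Ribosomes are built in the nucleolus. Pol I transcribes the ribosomal DNA into a long precursor RNA, small nucleolar ribonucleoproteins (snoRNPs) guide its chemical modification, and a large set of assembly factors folds and cuts it into the RNAs of the small and the large subunit. Rapidly dividing cells, leukemia cells among them, make ribosomes at a high rate, and many of these genes are textbook targets of the transcription factor MYC, which binds the E-box CACGTG. In bulk RNA, fewer cells that express a gene and less of its RNA per cell cannot be told apart.

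Promoter sequence was searched for this E-box and for C/EBP elements, since most of the genes moved in 1 direction. In the RefSeq promoter table (GRCh38.p14, 250 bases before to 50 after a start listed there), 46 of the 55 genes had an entry. For DDX21 and LYAR the listed start of the window shown lies inside the gene's RefSeq span. BOP1, DDX18, NOLC1, NOP58, POLR1E, RRP12, RRP1B, RRS1 and TCOF1 did not. The letters CACGTG, which read the same on both strands, were present in a window of 18 of the 46 genes (39.1%). Counted by gene in the same way, the share was 12.9% of 9139 other tested genes. Counted by window, it was 7.26% of all 35116 windows in the table. A stretch of 26 bases around the E-box is shown for the most abundant holder of each class that has one, except the box H/ACA class, whose holder NOP10 is shown in full below. It is given on the strand of the gene, with the E-box in capitals.
FBL, box C/D snoRNP methyltransferase, chr19:39846358-39846383, minus strand: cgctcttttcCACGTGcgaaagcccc
DDX21, large-subunit helicase, chr10:68956606-68956631, plus strand: ccgggtgtccCACGTGgtccccggcg
LYAR, nucleolar cell growth regulator, chr4:4290070-4290095, minus strand: gcggcgagtcCACGTGctccccgcgg
WDR43, small-subunit processome protein, chr2:28894660-28894685, plus strand: cacggacgaaCACGTGgctgcagcgg

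The other 14 holders were BYSL, GAR1, GNL2, GNL3, MRTO4, NOC3L, NOP10, NOP14, NOP2, PES1, RRP9, UTP18, UTP20 and UTP4. The full windows of the holder that fell most and of the holder that rose are shown because their RNAs moved in opposite directions while both carry the E-box.
NOC3L, large-subunit factor, chr10:94362890-94363189, minus strand, E-box from base 19 after the start: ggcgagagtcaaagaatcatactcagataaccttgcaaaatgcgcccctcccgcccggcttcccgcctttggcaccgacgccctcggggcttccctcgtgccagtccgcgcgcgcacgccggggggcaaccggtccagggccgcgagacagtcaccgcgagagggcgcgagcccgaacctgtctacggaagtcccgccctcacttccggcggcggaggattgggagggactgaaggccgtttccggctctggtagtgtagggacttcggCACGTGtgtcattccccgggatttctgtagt
NOP10, box H/ACA snoRNP protein, chr15:34343087-34343386, minus strand, E-boxes from bases −170 and −11: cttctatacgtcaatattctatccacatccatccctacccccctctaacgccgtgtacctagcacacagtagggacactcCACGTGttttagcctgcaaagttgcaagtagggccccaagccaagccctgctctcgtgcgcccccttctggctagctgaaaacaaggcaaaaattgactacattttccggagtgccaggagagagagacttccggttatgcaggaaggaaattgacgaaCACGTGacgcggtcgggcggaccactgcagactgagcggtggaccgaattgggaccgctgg

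Positions count the listed start as 0. The C/EBP-ATF element TTGCATCA (TGATGCAA on the other strand) occurred in 0 of the 46 genes and in 0.722% of the other tested genes. The C/EBP palindrome TTGCGCAA occurred in 0 of 46 and in 0.317%. Over all windows the shares were 0.866% and 0.151%. These counts say only that the letters are not in these windows. Of the 18 genes with the E-box, 11 fell and 1 rose at an adjusted p under 0.05, at which 23.8% of all genes tested were lower and 18.5% higher, with a median log2 fold change of −0.32. Among the 28 genes with an entry and no E-box, 15 fell and 1 rose, with a median of −0.24. The difference between these groups was not tested.

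Across the 55 genes the shift was downward and modest in size. At an adjusted p under 0.05, 33 of 55 (60.0%) were lower in sh-CEBPG#3 cells and 2 (3.64%), NOB1 and NOP10, were higher, while 20 were not called. Of all genes tested, 23.8% were lower and 18.5% were higher by the same test. Counts of genes that fell or rose in the reported setting, given below for classes and lists, are to be read beside these shares. The median log2 fold change was −0.31, against −0.04 over all genes tested, and the values ran from −0.93 for DKC1 to 0.51 for NOB1. With sh-CEBPG#3 replicate 2 left out, 20 of the 55 were lower and 2 higher, against 16.1% and 15.9% of all genes tested.

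In the reported setting, no gene of the 55 changed by more than 2-fold at an unadjusted p under 0.05. That threshold was passed by 3.41% of all genes. With the most abundant row alone, DKC1 passed it, at −1.25. The sh-CEBPG#3 libraries both lay under the sh-NC libraries for 45 genes and above them for 2, and the groups overlapped for 8. Over all genes tested, 40.2% had both sh-CEBPG#3 libraries lower and 31.5% had both higher. An exact two-sided permutation test of 2 against 2 libraries cannot give a p under 0.333, so each p rests on limma's variance model across genes.

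**Figure D1:**
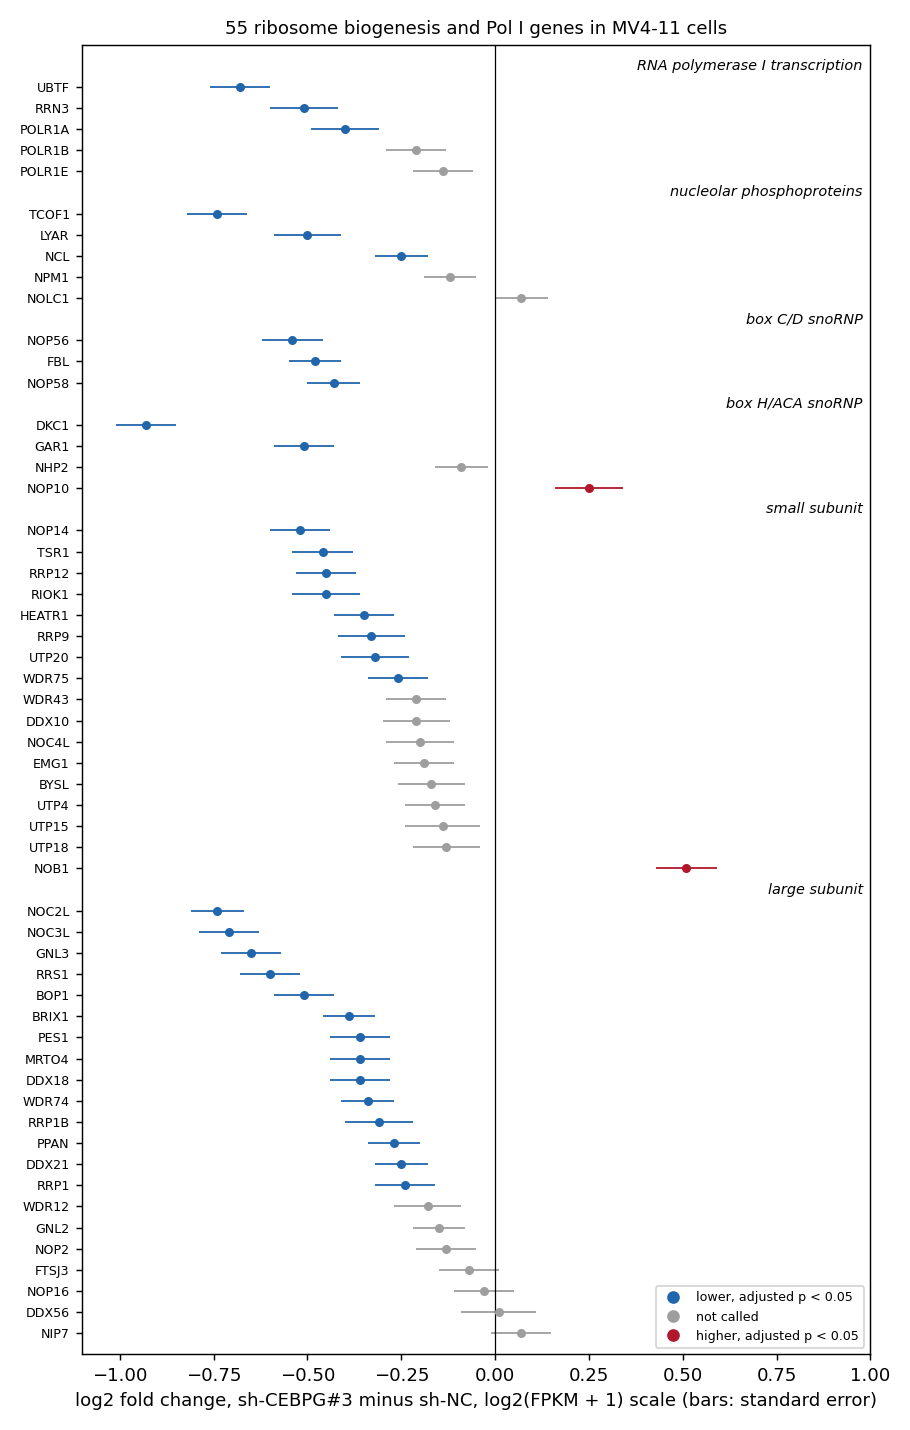
Log2 fold change (x axis, sh-CEBPG#3 minus sh-NC on the log2(FPKM + 1) scale) of the 55 genes, grouped by role. Points are limma estimates, bars are 1 standard error, blue and red mark genes lower and higher at an adjusted p under 0.05 and grey those not called. Blue points reach down to −0.93 (DKC1), and the red points are NOP10 at 0.25 and NOB1 at 0.51.

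In summed level, the 55 genes held 3367 and 3615 FPKM in sh-NC and 2960 and 2863 FPKM in sh-CEBPG#3, or 83.4% of the sh-NC mean. Their share of all FPKM was 0.924% and 0.931% in sh-NC and 0.759% and 0.761% in sh-CEBPG#3. NPM1 and NCL are the most abundant of them. Without both, the sums were 2280 and 2455 FPKM against 1944 and 1877 FPKM, or 80.7%. The groups did not overlap in either sum.

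A list of 12 proliferation markers moved with these genes. Their summed level was 637.8 and 695.0 FPKM in sh-NC and 421.8 and 397.6 FPKM in sh-CEBPG#3. Of the 12, 10 fell, 0 rose and 2 (RRM2 at 0.18 and AURKA at −0.20) were not called, with a median log2 fold change of −0.69. The largest decrease was that of MCM6, a subunit of the replicative helicase, from 42.8 and 46.5 to 20.7 and 18.5 FPKM. The part of cell proliferation in the values of the ribosome biogenesis genes was not tested, and the same holds for the myeloid markers above, of which 6 rose (LYZ from 567 and 610 to 3130 and 2980 FPKM) and 2, MEIS1 and HOXA9, fell.

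Of the 5 genes of Pol I transcription, 3 fell, and the median log2 fold change was −0.40. UBTF encodes the upstream binding factor, which coats active ribosomal DNA and helps bring Pol I to it, and lies on chromosome 17 from 44205040 to 44221304. It was at 37.1 and 41.0 FPKM in sh-NC and at 24.2 and 23.7 FPKM in sh-CEBPG#3. Both knockdown libraries were under both control libraries. The means were 39.0 ± 2.77 and 24.0 ± 0.342 FPKM (SD, n = 2 each), with a log2 fold change of −0.68 (SE 0.08, adjusted p = 0.000112).

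RRN3, the factor that makes Pol I able to start, was at 8.32 and 7.79 FPKM in sh-NC and at 5.56 and 5.14 FPKM in sh-CEBPG#3. Its log2 fold change was −0.51 (SE 0.09, adjusted p = 0.00162). RRN3 has near-identical pseudogene copies, so its level is uncertain where reads were split between copies. The catalytic subunit gene POLR1A fell from 13.5 and 15.3 to 10.7 and 10.6 FPKM (log2 fold change −0.40, adjusted p = 0.00468).

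The other 2 polymerase subunits were not called. Neither overlapped between the groups, and over all genes tested 40.2% were lower and 31.5% higher without overlap. POLR1B, which forms the active centre together with POLR1A, was at 13.9 and 14.7 FPKM in sh-NC and at 12.4 and 12.1 FPKM in sh-CEBPG#3, with a log2 fold change of −0.21 (95% interval −0.39 to −0.03, adjusted p = 0.0628). POLR1E, an accessory subunit, had a log2 fold change of −0.14 (95% interval −0.32 to 0.03). The 95% interval of POLR1A, −0.60 to −0.21, overlaps that of POLR1E. These 3 subunits had estimates between −0.40 and −0.14, and the differences among them were not tested.

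Among the nucleolar phosphoproteins, 3 of 5 fell, with a median log2 fold change of −0.25. TCOF1 encodes treacle, which supports ribosomal DNA transcription and is mutated in Treacher Collins syndrome. Its level went from 23.3 and 24.0 FPKM in sh-NC to 14.2 and 13.4 FPKM in sh-CEBPG#3, with no overlap. The log2 fold change was −0.74 (SE 0.08, adjusted p = 6.35e-05) for the sum of its 6 RefSeq rows and −0.22 (adjusted p = 0.389) for its most abundant row alone. LYAR fell by 0.50 on the log2 scale (adjusted p = 0.00122).

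The abundant chaperones had smaller estimates. NCL, nucleolin, was at 423 and 447 FPKM in sh-NC and at 368 and 363 FPKM in sh-CEBPG#3, a log2 fold change of −0.25 (SE 0.07, adjusted p = 0.014). This call was lost with the replicate block (adjusted p = 0.0931) and without either sh-CEBPG#3 library (0.161 without replicate 1 and 0.194 without replicate 2). NPM1, nucleophosmin, a histone and ribosome chaperone that is often mutated in AML, was the most abundant of the 55. It was at 664 and 713 FPKM in sh-NC and at 648 and 622 FPKM in sh-CEBPG#3. The groups lay next to each other without overlap, and the difference was not called, with a log2 fold change of −0.12 (95% interval −0.27 to 0.04, adjusted p = 0.216). With equal totals or quantile normalization NPM1 was called lower, at −0.14 and −0.18. Pseudogene copies of NPM1 make its level uncertain. NOLC1, a chaperone of snoRNPs, was at 97.8 and 106 FPKM against 109 and 106 FPKM, a log2 fold change of 0.07 (adjusted p = 0.438).

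**Figure D2:**
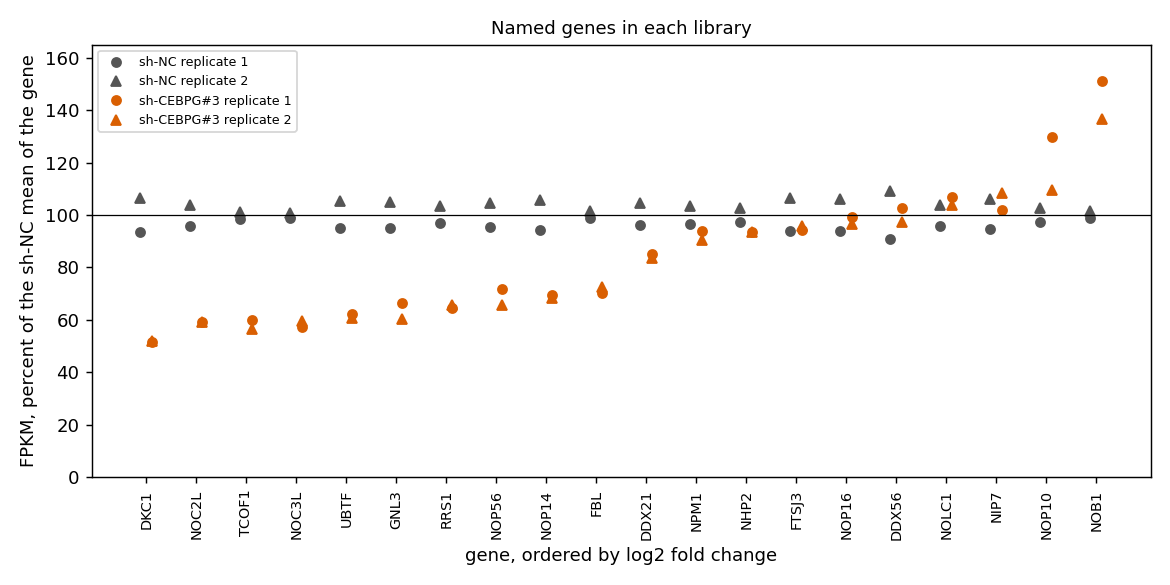
FPKM of 20 of the 55 genes in each of the 4 libraries (y axis, percent of the gene's sh-NC mean), ordered by log2 fold change along the x axis. Points are single libraries, grey for sh-NC and orange for sh-CEBPG#3, with circles for replicate 1 and triangles for replicate 2. From DKC1 to FBL the orange points lie far below 100, while those of NOP10 and NOB1 lie above all grey points.

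The box C/D snoRNP carries out ribose methylation. All 3 of its genes in the group were lower, with a median log2 fold change of −0.48. Its other core protein gene, SNU13, singled out after its values were seen, was not called, at −0.04 (adjusted p = 0.703). FBL encodes fibrillarin, the methyltransferase, and lies on chromosome 19 from 39834458 to 39846379. It was at 259 and 266 FPKM in sh-NC and at 184 and 190 FPKM in sh-CEBPG#3 (262 ± 5.10 and 187 ± 3.87 FPKM, SD, n = 2 each). The gap between the group means was larger than the SD of either group, and the log2 fold change was −0.48 (SE 0.07, adjusted p = 0.000322).

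NOP56, a scaffold protein of the particle, went from 122 and 134 FPKM to 91.9 and 83.8 FPKM. Its log2 fold change was −0.54 (SE 0.08, adjusted p = 0.000487) for the summed rows and −0.61 (adjusted p = 0.13) for the most abundant row alone. NOP58, the partner scaffold, went from 74.5 and 78.5 FPKM to 58.2 and 54.6 FPKM (log2 fold change −0.43, adjusted p = 0.00109). Within each library the ratio of FBL to NOP58 was 3.47 and 3.39 in sh-NC and 3.17 and 3.48 in sh-CEBPG#3. These ratios overlapped.

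The box H/ACA snoRNP, which converts uridine to pseudouridine, was split, with 2 of 4 genes lower and 1 higher (median −0.30). DKC1 encodes dyskerin, the pseudouridine synthase, which is also part of telomerase, and lies on the X chromosome from 154762864 to 154777689. It showed the largest decrease of the 55 genes, from 60.9 and 69.5 FPKM in sh-NC to 33.6 and 33.8 FPKM in sh-CEBPG#3. The knockdown libraries had an SD of 0.185 FPKM and stood at 51.7% of the sh-NC mean, with a log2 fold change of −0.93 (SE 0.08, adjusted p = 1.76e-05). GAR1 fell from 24.0 and 26.7 FPKM to 16.9 and 18.0 FPKM (log2 fold change −0.51, SE 0.08, adjusted p = 0.000902).

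The other 2 genes of the complex gave NHP2 not called and NOP10 higher. NHP2 was at 106 and 112 FPKM in sh-NC and at 102 FPKM in both sh-CEBPG#3 libraries, a log2 fold change of −0.09 (95% interval −0.24 to 0.07, adjusted p = 0.327), and it was called lower with equal totals (−0.12) and with quantile normalization (−0.19). NOP10, the smallest protein of the complex, was at 80.2 and 84.8 FPKM in sh-NC and at 107 and 90.3 FPKM in sh-CEBPG#3. Both knockdown libraries were above the controls but stood apart from each other, with an SD of 12.0 FPKM. The log2 fold change was 0.25 (SE 0.09, adjusted p = 0.0427), and without sh-CEBPG#3 replicate 1 it was 0.13 (adjusted p = 0.429). The rise was called in 9 of 14 settings and was also lost with no filter, with quantile normalization, with the replicate block and with the most abundant row.

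Ratios within a library do not depend on its scaling. The ratio of DKC1 to NOP10 was 0.759 and 0.82 in sh-NC and 0.313 and 0.375 in sh-CEBPG#3. That of DKC1 to NHP2 was 0.577 and 0.62 against 0.327 and 0.332, and that of GAR1 to NOP10 was 0.299 and 0.315 against 0.158 and 0.199. None of these 3 ratios overlapped between the groups. For the ratios over NOP10 this had to follow, since DKC1 and GAR1 were lower and NOP10 was higher in both sh-CEBPG#3 libraries. The ratios of genes given here were not planned in advance. They are given as a description, with no test.

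**Figure D3:**
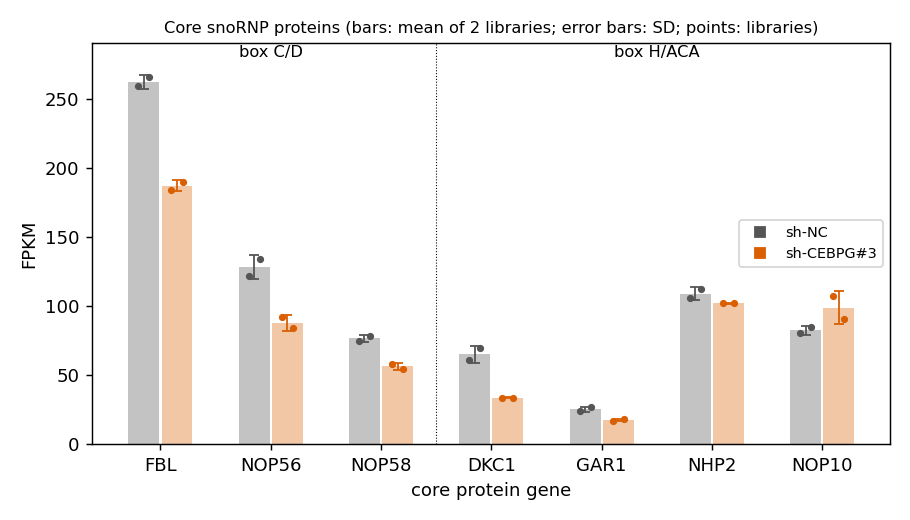
FPKM (y axis) of the core protein genes of the box C/D and box H/ACA snoRNPs (x axis). Bars are means of 2 libraries, error bars are the SD and points are single libraries, grey for sh-NC and orange for sh-CEBPG#3. FBL, NOP56, NOP58, DKC1 and GAR1 are lower in sh-CEBPG#3, NHP2 is at 106 and 112 against 102 FPKM and not called, and NOP10 lies above its controls.

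The small-subunit factors act in the early processome and in late precursor particles. Of 17 genes, 8 fell, 1 rose and 8 were not called, with a median log2 fold change of −0.21. NOP14, a processome component, went from 32.0 and 36.0 FPKM in sh-NC to 23.6 and 23.2 FPKM in sh-CEBPG#3. It had the largest decrease of the class, with no overlap, at −0.52 (SE 0.08, adjusted p = 0.000768).

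The others that fell were TSR1 at −0.46, RRP12 at −0.45 and the kinase RIOK1 at −0.45, which act on late precursor particles, and HEATR1 at −0.35, RRP9 at −0.33, UTP20 at −0.32 and WDR75 at −0.26, which belong to the early processome. Their adjusted p-values ran from 0.00133 for TSR1 to 0.0289 for WDR75. WDR75 was called in 8 of 14 settings, UTP20 in 10, RRP9 in 12 and HEATR1 in 13. The 8 not called were WDR43 and DDX10 at −0.21, NOC4L at −0.20, EMG1 at −0.19, BYSL at −0.17, UTP4 at −0.16, UTP15 at −0.14 and UTP18 at −0.13. All 8 estimates were negative, and the groups overlapped for BYSL and UTP18. UTP15 had the lowest level of the 55, at 4.53 and 4.04 FPKM in sh-NC and 3.84 and 3.72 FPKM in sh-CEBPG#3.

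NOB1 went the other way. It encodes the endonuclease that makes the last cut at the end of the small-subunit rRNA, and lies on chromosome 16 from 69741871 to 69754926. It was at 38.5 and 39.6 FPKM in sh-NC and at 58.9 and 53.3 FPKM in sh-CEBPG#3. Both knockdown libraries were above both controls, at 144% of the sh-NC mean, with a log2 fold change of 0.51 (SE 0.08, adjusted p = 0.000569). NOB1 was called higher in all 14 settings that were run, the reported one included. The ratio of NOB1 to TSR1, which act in the same late particles, was 1.49 and 1.41 in sh-NC and 3.0 and 2.8 in sh-CEBPG#3. This pair was not planned either, and its genes moved in opposite directions.

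The large-subunit factors were the largest class. Of 21 genes, 14 fell, 0 rose and 7 were not called, with a median log2 fold change of −0.31. NOC2L, which pairs with NOC3L during nuclear maturation and also inhibits histone acetylation, went from 55.6 and 60.3 FPKM to 34.4 and 34.2 FPKM (log2 fold change −0.74, SE 0.07, adjusted p = 4.43e-05). NOC3L, whose promoter is printed above, went from 14.8 and 15.1 FPKM to 8.61 and 8.95 FPKM (−0.71, SE 0.08, adjusted p = 0.000107). In both genes the knockdown libraries lay at about the same fraction of the controls, 59.2% and 58.7%.

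GNL3, nucleostemin, a GTPase of stem and cancer cells, was at 74.1 and 81.9 FPKM in sh-NC and at 51.9 and 46.9 FPKM in sh-CEBPG#3 (log2 fold change −0.65, SE 0.08, adjusted p = 0.000183). RRS1, which helps to load the ribosomal RNA that Pol I does not make, was at 34.8 and 37.1 FPKM against 23.1 and 23.5 FPKM (−0.60, SE 0.08, adjusted p = 0.000174). Neither gene overlapped between the groups.

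PES1, BOP1 and WDR12 encode the trimeric PeBoW complex. BOP1 fell from 73.6 and 81.0 FPKM to 53.6 and 54.3 FPKM (log2 fold change −0.51, adjusted p = 0.000493), and PES1 fell by 0.36 on the log2 scale (adjusted p = 0.006, called in 12 of 14 settings). WDR12 was not called, at −0.18 (95% interval −0.38 to 0.02, adjusted p = 0.135). Whether the 3 subunits differ in response was not tested.

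BRIX1 (−0.39), MRTO4 and DDX18 (−0.36 each), WDR74 (−0.34), RRP1B (−0.31), PPAN (−0.27), DDX21 (−0.25) and RRP1 (−0.24) made up the rest of the 14 that fell, all of them helicases or assembly factors of nuclear precursor particles. Of the 14 settings, RRP1 was called in 8, DDX21 and RRP1B in 10, PPAN in 11, WDR74 in 12, and MRTO4 and DDX18 in 13. The calls of RRP1, DDX21 and PPAN were lost with the replicate block (adjusted p = 0.101, 0.0891 and 0.0656) and without either sh-CEBPG#3 library. PPAN shares sequence with a read-through transcript, so its level is uncertain. DDX21, an RNA helicase that also acts in Pol I transcription, had the highest level of the class, at 122 and 133 FPKM in sh-NC and at 108 and 106 FPKM in sh-CEBPG#3 (adjusted p = 0.0187). GNL2 at −0.15 and the RNA methyltransferase NOP2 at −0.13 were not called.

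The other 4 large-subunit genes were close to their control levels, and all 4 overlapped between the groups. FTSJ3 was at 21.5 and 24.4 FPKM against 21.6 and 21.9 FPKM, and NOP16 was at 51.3 and 58.0 FPKM against 54.1 and 52.7 FPKM. DDX56 was at 23.6 and 28.4 FPKM against 26.7 and 25.3 FPKM, and NIP7 at 22.2 and 24.9 FPKM against 23.9 and 25.5 FPKM. Their log2 fold changes were −0.07, −0.03, 0.01 and 0.07. The 95% interval of DDX56, −0.21 to 0.22, excludes a change of the size seen for NOC2L or NOC3L.

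Summed values can hide differences between transcripts. The 55 genes took up 101 RefSeq rows, with 34 genes on 1 row, 21 on at least 2 and NOP16 on 9. No gene had rows that moved in opposite directions by over 1 on the log2(FPKM + 1) scale. The following rows were picked after their values were seen. The main row of DKC1, with 89.7% of its sh-NC level, went from 54.9 and 62.1 to 19.6 and 29.4 FPKM (−1.25). A noncoding UBTF row, with 30.5% of the gene's sh-NC level, differed by −1.26 and stood at 4.18 and 4.47 FPKM in sh-CEBPG#3, while its main row went from 21.0 and 19.9 to 14.4 and 14.5 FPKM (−0.47). For NOP2 the split between rows varied within a group, and 1 row read 0 and 9.05 FPKM in sh-NC and 0 and 3.96 FPKM in sh-CEBPG#3.

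Many snoRNAs are cut from the introns of genes for ribosome factors. This was looked up after the values were seen. In the GENCODE annotation, 8 of the 55 genes (NCL, DKC1, NOP56, NOP58, WDR43, PPAN, GNL3 and TSR1) hold 25 annotated snoRNA genes on their own strand, of which 21 had values. Of these 8 hosts, 7 fell, WDR43 being the one not called, with a median log2 fold change of −0.44. Of the other 47 genes 26 fell, with a median of −0.26. By the same test 23.8% of all genes tested were lower. The difference between hosts and other genes was not tested. The snoRNAs themselves had values from 0 to 18.0 FPKM. The highest was SNORD110 within NOP56, at 11.8 and 18.0 FPKM in sh-NC and 9.40 and 10.2 FPKM in sh-CEBPG#3. RNAs this short are poorly captured by such libraries, and nothing is read from their levels.

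The rest of the pathway was described from lists of 131 other tested genes. Together 60 of them fell (45.8%), 6 rose (4.58%) and 65 were not called, with a median log2 fold change of −0.21. Over all genes tested, 23.8% were lower and 18.5% higher. Among 16 other Pol I genes 6 fell and 0 rose (median −0.19), and the largest decrease was that of CD3EAP, a Pol I subunit, from 7.42 and 6.92 to 3.32 and 3.26 FPKM (log2 fold change −0.93, adjusted p = 4.66e-05). Among 10 snoRNP assembly factors 5 fell and 0 rose (median −0.28), led by the chaperone cofactor PIH1D1 at −0.51. The others of those 5, named after their values were seen, were ZNHIT6 at −0.46, RUVBL1 at −0.42, NAF1 at −0.41 and ZNHIT3 at −0.38.

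Of 40 other small-subunit factors 21 fell and 2 rose (median −0.25). UTP14A, a processome protein, had the largest decrease, from 18.5 and 19.1 to 7.54 and 7.99 FPKM (−1.18, adjusted p = 4.29e-06). The 2 that rose were BUD23, an rRNA methyltransferase, at 0.62 and UTP11 at 0.44. Of 42 other large-subunit factors 20 fell and 3 rose (median −0.21). PELP1, a subunit of a complex that acts in large-subunit maturation, went from 16.3 and 18.0 to 6.16 and 5.11 FPKM (−1.46, adjusted p = 4.06e-06).

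The 3 that rose were SBDS at 0.59, SENP3 at 0.45 and EIF6 at 0.36. SBDS acts on the late large subunit to remove EIF6, which keeps the subunits apart. SBDS was at 14.6 and 16.5 FPKM in sh-NC and at 25.3 and 22.5 FPKM in sh-CEBPG#3 (adjusted p = 0.000698). UTP11, SENP3 and EIF6 were named after their values were seen.

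The RNA exosome, which trims rRNA precursors, had 7 of 14 genes lower and 1 higher (median −0.16). EXOSC5 fell by 0.89 on the log2 scale and EXOSC1 rose by 0.32. RNase MRP and P, which cut precursors of rRNA and tRNA, had 1 of 9 lower, POP1 at −0.41, and 0 higher (median −0.04).

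The other polymerases and the ribosomal proteins gave a frame for these values. Of 7 subunits of RNA polymerase II, 2 fell (POLR2I at −0.45 and, named after its value was seen, POLR2A at −0.25) and 1 rose (POLR2G at 0.44), with a median of −0.09. Of 20 RNA polymerase III genes, 6 fell and 0 rose (median −0.17), with POLR3GL lowest at −1.29. Of 33 cytosolic ribosomal proteins 13 fell (39.4%) and 1, RPL15 at 0.40, rose (3.03%), with a median of −0.19. RPS13 fell most, from 1500 and 1560 to 970 and 1010 FPKM. The many pseudogenes of ribosomal proteins make their single values uncertain. No difference between these lists was tested.

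**Figure D4:**
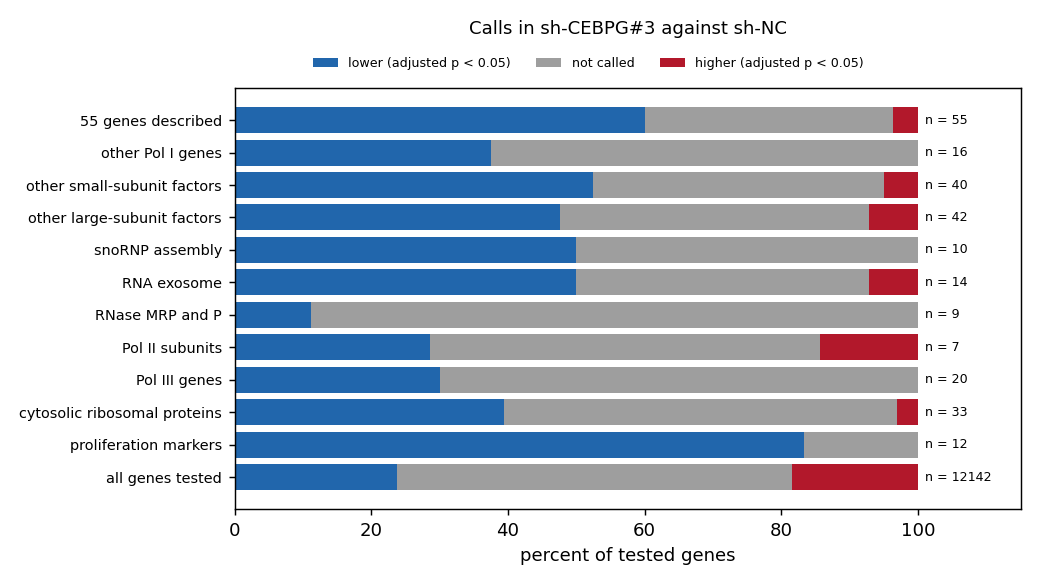
Percent of the tested genes of each list (x axis) that were lower, not called or higher in sh-CEBPG#3 at an adjusted p under 0.05, with the number of genes tested beside each bar. The lower share is 60.0% for the 55 genes and 23.8% for all genes tested, and proliferation markers reach 83.3%.

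MYC, a main activator of ribosome biogenesis genes, was at 217 and 249 FPKM in sh-NC and at 140 and 136 FPKM in sh-CEBPG#3. The groups did not overlap, with a log2 fold change of −0.75 (SE 0.08, adjusted p = 6.48e-05). Of 8 tested genes of its network, 2 fell (MYC and MGA, the latter at −0.32) and 2 rose (MXD1 at 0.52 and MXI1 at 0.30). The median was −0.04. These counts are 25.0% each way, against 23.8% lower and 18.5% higher over all genes tested. MXD1 and MXI1 encode partners of MAX that repress E-box genes, and MAX was not called, at −0.04. Other partners of MAX in this list did not rise with them. MGA fell, and MNT at −0.26, MXD3 at −0.03 and MXD4 at 0.02 were not called. MGA, MXI1, MNT, MXD3 and MXD4 were named after their values were seen. The part of MYC in the values of the ribosome biogenesis genes was not tested.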

How the data were processed

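RNA-seq libraries of MV4-11 cells were analysed, 2 with sh-NC and 2 with sh-CEBPG#3. Per the submitters' processing notes, reads were mapped to hg38 with HISAT2 2.0.5, and the authors deposited FPKM values per RefSeq transcript and library. The FPKM program and annotation release are not given in the sources used here. The study's own test takes counts, so limma on a log scale was used in its place.

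Of 28780 rows, 28581 had values. They were summed by symbol into 16490 genes, and 164 rows lacking a symbol were kept single. A mean of 0.5 FPKM or more was reached by 12142 genes. Their log2(FPKM + 1) values were fitted by lmFit and trended eBayes (limma 3.58.1, R 4.3.3), and Benjamini-Hochberg adjustment ran over all of them. Changes of low genes are understated on this scale. Standard errors and 95% intervals are limma's. Depth is unknown, since no counts are given. At values under 0.06 FPKM, 0.69% of 579 genes shared the most common ratio between libraries, so no steps of whole reads were seen.

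The genes and lists were chosen with earlier results of these data known, so their direction is no independent evidence. Library values are given for the most abundant and the most changed gene of each role class, and the 8 lowest and 8 highest log2 fold changes, of which 5 are above 0. From each other list at most the largest called decrease and increase are named, some by fold change alone. The remaining genes of the 55 are given by fold change or by library values. The lists were other Pol I genes, other small- and large-subunit factors, snoRNP assembly, RNA exosome, RNase MRP and P, RNA polymerases II and III, cytosolic ribosomal proteins, proliferation markers, the MYC network, and myeloid, T-cell, B-cell and erythroid markers. No set test was run.

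Replicate numbers come from the sample titles. Gene positions and promoters are those of RefSeq on GRCh38.p14, and snoRNA genes those of GENCODE on the same assembly. Searches were run with Python 3.11.15. Alternatives were equal totals, quantile normalization, pseudocounts of 0.1 and 0.01, a filter at 1 FPKM or none, the replicate block, the most abundant row of each gene and each library left out. Robust variance estimation was added after the data were seen.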

Additional observations from a re-analysis of the deposited data

How the results depend on the processing

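Of the 55 genes, 18 were called lower in all 14 settings and NOB1 higher in all 14. The same count was not made over all genes tested, so no share can be set beside it. The number called was 35 as reported, 30 with no filter, 46 with equal totals, 42 with quantile normalization, 24 with the most abundant row and 38 with robust variance, the last chosen after seeing the data. Those counts take both directions. Of all genes tested, 23.8%, 13.5%, 28.9%, 25.2%, 12.8% and 26.1% were lower in these settings, in the same order. In that order, 18.5%, 11.3%, 19.3%, 22.2%, 11.1% and 20.4% of all genes tested were higher. With one library left out it ranged from 22 (without sh-CEBPG#3 replicate 2) to 40 (without sh-NC replicate 1), where 16.1% and 25.1% of all genes were lower, and the remaining library of that group was assumed to vary like the others. No label says that a replicate number marks a shared source, and the deviations of same-numbered libraries from their group means correlated at 0.061. The replicate block gave 29 calls, with 22.0% of all genes lower and 17.2% higher. Over all genes the most abundant row gave 1535 lower and 1329 higher, against 2884 and 2244. One gene passed 2-fold with the most abundant row, and 0 to 1 with a library left out (1 without sh-NC replicate 1). The median of the 55 was −0.35 to −0.24 with a library left out. A list median was taken to have moved when it changed by at least the SD of the library medians within groups. That of other Pol I genes moved to −0.26 with the most abundant row and was −0.25 to −0.13 with a library left out. That of snoRNP assembly moved to −0.33 with pseudocounts of 0.1 and of 0.01 and to −0.21 with the most abundant row. It was −0.36 to −0.27 with a library left out. For the MYC network this SD was only 0.004. Its median was −0.06 with equal totals, −0.01 with quantile normalization and 0.05 with the most abundant row. It was −0.04 with both pseudocounts, the reported value at this rounding, and −0.09 to −0.03 with a library left out. With a library left out, medians ranged over −0.27 to −0.19 for other large-subunit factors, −0.23 to −0.11 for the exosome, −0.09 to −0.01 for RNase MRP and P and −0.25 to −0.11 for cytosolic ribosomal proteins. Of the 55, the sign reversed in 6 genes, none of them called, namely NOP2 (0.77), NOP16 (0.08), NOLC1 (−0.04) and NIP7 (−0.02) with the most abundant row, NOLC1 with quantile normalization (−0.03), DDX56 with equal totals (−0.02), and with a library left out NOP16 (0.06), DDX56 (−0.12 to 0.14), FTSJ3 (−0.16 to 0.02) and NIP7 (−0.01 to 0.15). The cause was not tested. Depth is unknown and sets no stated limit.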
